A study of Mus musculus with 10 samples.

Results

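The genes described here encode the blood coagulation cascade, its inhibitors, the fibrinolytic (plasmin) system and the protease-activated receptors, the family through which thrombin signals, in mouse liver. They are 43 genes given as a list of symbols and were found by symbol among the 55401 genes of the count files. Of these, 35 had at least 1 CPM (a count relative to the total of its library) in 5 or more of the 10 libraries and were tested among 12234 genes, and 8 were under this filter. The question the comparison bears on is which liver transcripts depend on thyroid hormone receptor beta (THRB) in hepatocytes. Livers of 5 wild-type (WT) mice were compared with livers of 5 littermate mice whose genotype label is a liver-specific THRB KO, referred to as Thrb hep-/-, taken as 1 library per mouse. All mice carry the strain name C57Bl6/J in their titles, had standard chow and water and received no treatment. Thrb hep-/- mice came from a cross of Thrb-loxP/loxP with Afp-Cre mice, so Cre was driven by the alpha-fetoprotein promoter, which acts in the hepatoblast lineage. Age, sex and the alleles carried by the WT littermates are not given in the sources used here.

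Most soluble clotting factors are plasma proteins that hepatocytes make and secrete as inactive precursors. A cascade of serine proteases, started by tissue factor or by contact with a surface, ends in thrombin, which turns fibrinogen into fibrin and activates cells by cleaving protease-activated receptors. Antithrombin, the protein C system and the protein Z system restrain the cascade, and plasmin, formed from plasminogen, dissolves the fibrin. In bulk liver RNA, fewer cells of a type and less RNA per cell cannot be told apart.

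Library totals were between 26477195 and 28590704 counts, so that the limit which a count of 0 allows (3 counts, counting error only) was between 0.0993 and 0.117 normalized CPM. The targeted gene, Thrb, had a mean of 33.3 ± 0.643 normalized CPM (SD, n = 5) in WT mice and of 26.7 ± 1.93 (SD, n = 5) in Thrb hep-/- mice, with no overlap of the genotypes. Its log2 fold change was -0.32 with a standard error of 0.0666 (adjusted p = 0.0359 by the quasi-likelihood test of edgeR, Benjamini-Hochberg adjusted). Counts per gene do not show which Thrb exons the remaining reads came from. The 6 hepatocyte markers summed to between 82228 and 125427 normalized CPM in WT mice and between 99914 and 111639 in Thrb hep-/- mice, mostly from Alb. Of these 6 genes, 4 were fitted higher and 2 lower, and 0 passed an adjusted p of 0.15. Ttr did not overlap between the genotypes (log2 fold change 0.30, adjusted p = 0.179 by the same edgeR test).

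Of the 35 coagulation genes tested, 4 had a lower level in Thrb hep-/- livers and passed an adjusted p of 0.15, the threshold of the study, and none was higher. The 4 were the thrombin receptor F2r, the protein Z-dependent inhibitor Serpina10, the protein C cofactor Pros1 and the carboxypeptidase Cpb2. They make up 11.4% of the 35 genes. Among all 12234 genes tested, 499 (4.08%) were past the same threshold, with 314 (2.57%) lower and 185 (1.51%) higher. At an adjusted p below 0.05 there was 1 coagulation gene, F2r, against 165 genes (1.35%) overall. At an unadjusted p below 0.05 there were 11, of which 9 were lower and 2 higher, against 1659 genes (13.6%) overall. F2r was also the only one of the 35 in which no Thrb hep-/- mouse lay within the WT range, a state found in 445 genes (3.64%) overall. Fitted log2 fold changes were below 0 in 23 and above 0 in 12 of the 35, with a median of -0.10 (quartiles -0.32 and 0.064) beside a median of 0.00054 over all genes tested. With DESeq2 in place of edgeR's quasi-likelihood test, 8 of the 35 were past an adjusted p of 0.15, 7 lower and 1 higher, and among all genes tested 885 (7.23%) were, 484 (3.96%) lower and 401 (3.28%) higher.

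**Figure D1:**
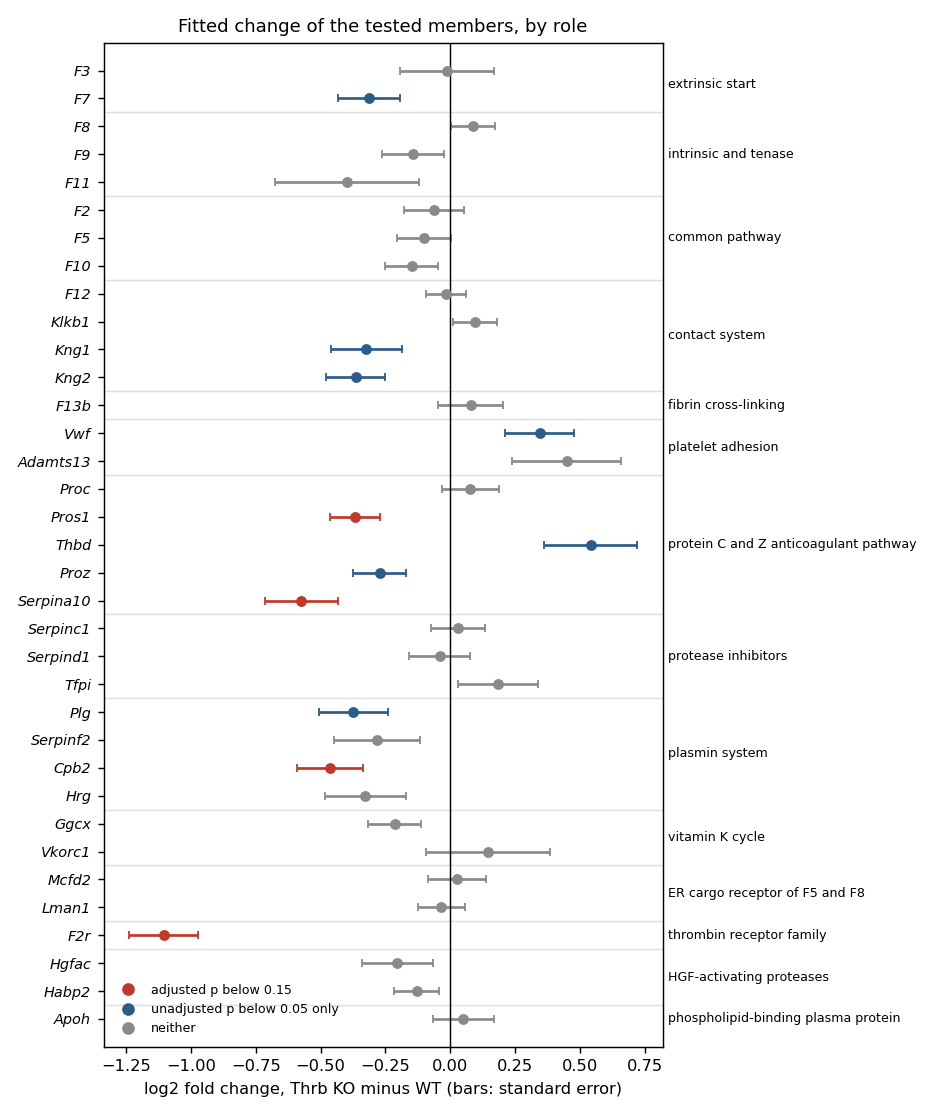
Fitted log2 fold change (Thrb hep-/- minus WT, x axis) of each of the 35 tested genes, grouped by role, with standard errors as bars and n = 5 mice per genotype. Red marks the 4 genes past an adjusted p of 0.15 and blue the 7 with an unadjusted p below 0.05 only. F2r at -1.11 lies farthest from 0, and the 4 genes of the plasmin system all lie below 0.

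F2r (ENSMUSG00000048376) encodes protease-activated receptor 1, the receptor through which thrombin signals to endothelial, stromal and many other cells. On GRCm38 it is found on chromosome 13, bases 95601803 to 95618487 of the minus strand, between its relatives F2rl1 and F2rl2. Normalized CPM of F2r were 53.6, 43.1, 37.0, 42.8 and 35.0 in WT mice 1 to 5, whereas Thrb hep-/- mice 1 to 5 had 21.7, 16.1, 16.6, 20.9 and 22.9. The highest Thrb hep-/- mouse was thus below the lowest WT mouse. The WT mean of 42.3 ± 7.25 (SD, n = 5) stood against 19.6 ± 3.09 (SD, n = 5) in Thrb hep-/- livers. The log2 fold change was -1.11 with a standard error of 0.133 (adjusted p = 0.00186 by the quasi-likelihood test of edgeR, Benjamini-Hochberg adjusted). It was past 0.15 under all 17 alternatives run, with log2 fold changes between -1.17 and -1.0. The other receptors of this family were scarce in these livers. F2rl1 (protease-activated receptor 2, which trypsin-like proteases rather than thrombin activate) had between 0.114 and 0.393 normalized CPM over the 10 mice, F2rl2 (receptor 3) between 0.0331 and 0.280, and both were under the filter, so no change could be tested at this depth. F2rl3 (receptor 4), which is no member of the list, was at 0 in 4 of the 10 mice and reached at most 0.112.

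The 3 promoters available among the 4 lower genes are shown to give their sequence context. They are the 250 bases before the RefSeq start on GRCm38.p6, written 5′ to 3′ on the strand of the gene. Capitals mark the only match found to the motifs searched, a STAT-type palindrome in Pros1 whose bases lie 92 to 84 before the start. The F2r window is chr13:95618467-95618716 (minus strand) and its last 21 bases are inside the GENCODE gene model. The Pros1 window is chr16:62854057-62854306 and the Cpb2 window chr14:75242037-75242286, both on the plus strand.
F2r: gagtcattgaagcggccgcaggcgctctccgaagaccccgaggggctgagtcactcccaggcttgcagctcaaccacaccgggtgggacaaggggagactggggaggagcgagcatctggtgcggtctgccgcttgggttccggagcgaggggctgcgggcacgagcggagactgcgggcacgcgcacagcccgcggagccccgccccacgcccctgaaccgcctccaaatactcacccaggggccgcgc
Pros1: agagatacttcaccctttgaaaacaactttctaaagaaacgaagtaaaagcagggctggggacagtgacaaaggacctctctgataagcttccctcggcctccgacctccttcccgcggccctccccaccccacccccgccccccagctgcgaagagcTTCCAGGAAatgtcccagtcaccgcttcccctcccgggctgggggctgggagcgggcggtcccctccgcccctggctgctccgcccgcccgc
Cpb2: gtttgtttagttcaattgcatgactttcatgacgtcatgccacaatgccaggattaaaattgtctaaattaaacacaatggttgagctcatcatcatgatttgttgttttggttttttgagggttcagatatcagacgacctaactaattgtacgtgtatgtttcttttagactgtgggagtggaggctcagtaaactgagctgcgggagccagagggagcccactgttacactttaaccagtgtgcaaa

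The motifs were searched on both strands of 32851 RefSeq promoter windows of 250 bases, which covered 33 of the 43 genes; Serpina10 was not among them. AGGTCA, the hexamer bound by nuclear receptors, was present in 14.0% of all windows and in those of 9 of the 33 genes. The direct repeat of AGGTCA with a spacer of 4 bases, the classical thyroid hormone response element, was present in 0.0152% of all windows and in none of the 33. TTCNNNGAA, the STAT-type palindrome, was present in 7.02% of all windows and in 3 of the 33 (F9, Pros1 and Hgfac). TTGCNNAA, a C/EBP-type sequence, was present in 9.56% of all windows and in 11 of the 33. The HNF1-type palindrome was in none of the 33. A longer motif can contain a shorter one, and a match or its absence in these letters was not related to binding of any factor.

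A shorter window, the last 60 bases before the start, holds part of the same matches and is no separate search. In it, AGGTCA on either strand was present in 3.4% of the 32851 windows and in 5 of the 33 genes, namely F2, F5, F7, F10 and Kng2. The 4 procoagulant factors among them each carry it in reverse orientation as TGACCT, shown in capitals in the 60-base windows of GRCm38.p6 on the strand of the gene. The windows are chr2:91636458-91636517 for F2 (minus strand), chr1:164151775-164151834 for F5, chr8:13025974-13026033 for F7 and chr8:13037248-13037307 for F10 (plus strand).
F2: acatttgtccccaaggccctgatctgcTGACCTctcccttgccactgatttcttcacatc
F5: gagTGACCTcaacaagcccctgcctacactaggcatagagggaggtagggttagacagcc
F7: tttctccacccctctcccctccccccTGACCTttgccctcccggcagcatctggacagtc
F10: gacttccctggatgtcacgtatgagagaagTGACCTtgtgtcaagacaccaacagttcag
No gene of the 4 passed the threshold, and their log2 fold changes were -0.063, -0.10, -0.31 and -0.15 in the same order.

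Among the anticoagulants, the other calls were in the protein C and protein Z system. Of its 5 tested genes, 2 were lower and none higher at an adjusted p below 0.15. Among all genes tested the shares were 2.57% lower and 1.51% higher. Of the 5, 3 were fitted lower and 2 higher, and the grouping was made with earlier results of these data known. Serpina10 (ENSMUSG00000061947, chromosome 12, 103614786 to 103631444, minus strand) encodes the serpin that inhibits activated factor X with protein Z as its cofactor. Its normalized CPM were 498, 509.7, 336, 472 and 453 in WT mice 1 to 5, whereas Thrb hep-/- mice 1 to 5 had 344, 347, 244, 254 and 335. WT mouse 3 was below 2 of the Thrb hep-/- mice and the other 4 WT mice were above all of them. The WT mean of 454 ± 69.3 (SD, n = 5) stood against 305 ± 51.3 (SD, n = 5) in Thrb hep-/- livers, with a log2 fold change of -0.57 and a standard error of 0.140 (adjusted p = 0.0699 by the quasi-likelihood test of edgeR, Benjamini-Hochberg adjusted). The call was lost without WT mouse 2 (log2 fold change -0.53, adjusted p = 0.168 by the same edgeR test) and without Thrb hep-/- mouse 3 (-0.50, adjusted p = 0.174).

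Pros1 (ENSMUSG00000022912, chromosome 16, 62854307 to 62929346, plus strand) encodes protein S, the vitamin K-dependent cofactor of activated protein C. Normalized CPM of Pros1 were 92.8, 95.2, 73.6, 77.7 and 78.6 in WT mice 1 to 5, whereas Thrb hep-/- mice 1 to 5 had 75.4, 65.7, 58.0, 63.9 and 60.8. Thrb hep-/- mouse 1 was above WT mouse 3, and this was the only overlap. The WT mean of 83.6 ± 9.74 (SD, n = 5) stood against 64.8 ± 6.64 (SD, n = 5) in Thrb hep-/- livers, with a log2 fold change of -0.37 and a standard error of 0.0954 (adjusted p = 0.0825 by the quasi-likelihood test of edgeR, Benjamini-Hochberg adjusted). Pros1 was no longer past 0.15 without WT mouse 1 or 2 or Thrb hep-/- mouse 3, 4 or 5, with adjusted p = 0.160, 0.215, 0.217, 0.162 and 0.174 in that order by the same edgeR test.

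The other genes of this system did not pass 0.15. Proz, which encodes protein Z itself, had 542, 454, 416, 516 and 502 normalized CPM in WT mice and 425, 454, 371, 346 and 415 in Thrb hep-/- mice. All 5 Thrb hep-/- mice were below the same 4 WT mice, mouse 2 only just, and WT mouse 3 lay within their range, and the log2 fold change was -0.27 with a standard error of 0.104 (adjusted p = 0.270 by the quasi-likelihood test of edgeR, Benjamini-Hochberg adjusted). Proc, which encodes protein C, had means of 438 ± 55.0 and 462 ± 54.0 (SD, n = 5 each; log2 fold change 0.077). Thbd, which encodes thrombomodulin, the endothelial receptor that turns thrombin towards protein C, had 1.78, 2.76, 2.07, 2.03 and 1.98 normalized CPM in WT mice and 3.06, 4.24, 2.98, 2.55 and 2.69 in Thrb hep-/- mice. Only WT mouse 2 lay within the Thrb hep-/- range, and the log2 fold change was 0.54 with a standard error of 0.180 (adjusted p = 0.192 by the quasi-likelihood test of edgeR, Benjamini-Hochberg adjusted). With DESeq2, Thbd (adjusted p = 0.101) and Proz (adjusted p = 0.130) were past 0.15. Procr, the endothelial protein C receptor, had between 0.189 and 1.5 normalized CPM and was under the filter.

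**Figure D2:**
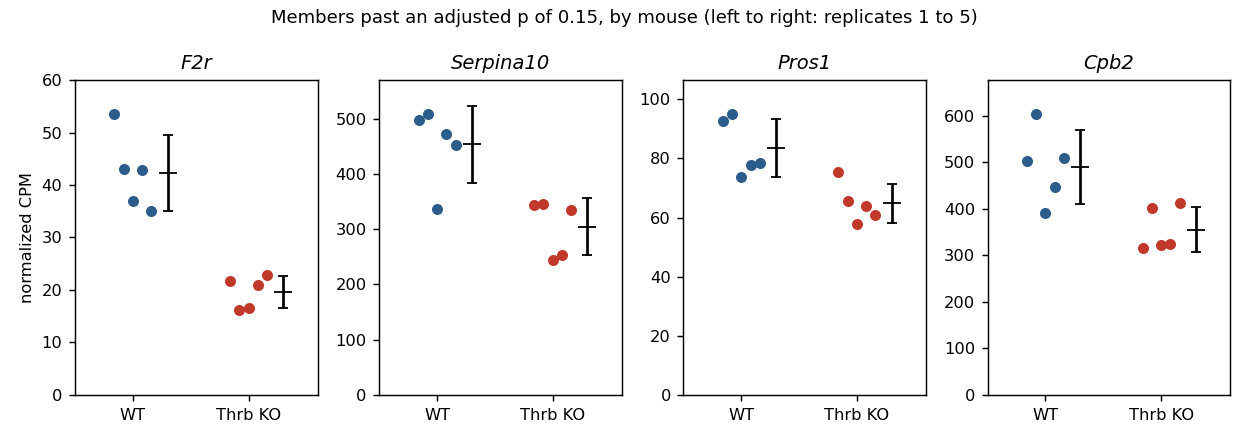
Normalized CPM (y axes, from 0) of F2r, Serpina10, Pros1 and Cpb2 in each of the 5 WT and 5 Thrb hep-/- mice, 1 point per mouse with replicates 1 to 5 from left to right, and the mean with its SD beside the points. The genotypes are separate for F2r, whereas WT mouse 3 overlaps the Thrb hep-/- mice in the other 3 genes.

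Among the plasmin system genes, 4 were tested and all 4 had a log2 fold change below 0 (median -0.35). Past an adjusted p of 0.15 there was 1 gene, beside 4.08% of all genes tested. This was Cpb2 (ENSMUSG00000021999, chromosome 14, 75242287 to 75283555, plus strand), which encodes the thrombin-activatable fibrinolysis inhibitor, a carboxypeptidase that removes plasminogen binding sites from fibrin. Normalized CPM of Cpb2 were 501, 604, 389.9, 446 and 508 in WT mice 1 to 5, whereas Thrb hep-/- mice 1 to 5 had 315, 402, 321, 325 and 412. WT mouse 3 was below Thrb hep-/- mice 2 and 5, and the other WT mice were above all Thrb hep-/- mice. The WT mean of 489.9 ± 79.8 (SD, n = 5) stood against 355 ± 47.9 (SD, n = 5) in Thrb hep-/- livers, with a log2 fold change of -0.46 and a standard error of 0.128 (adjusted p = 0.105 by the quasi-likelihood test of edgeR, Benjamini-Hochberg adjusted). Cpb2 lost the call without WT mouse 1, 2 or 5 or Thrb hep-/- mouse 1, 3 or 4, with adjusted p = 0.161, 0.238, 0.205, 0.158, 0.255 and 0.215 in that order by the same edgeR test.

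Plg, which encodes plasminogen, had 3347, 2869, 2459.8, 2849.9 and 2685 normalized CPM in WT mice 1 to 5, whereas Thrb hep-/- mice 1 to 5 had 2509, 2495, 1869, 1757 and 2329. WT mouse 3 was again the only WT mouse within the other range. The log2 fold change of Plg was -0.37 with a standard error of 0.133 (adjusted p = 0.228 by the quasi-likelihood test of edgeR, Benjamini-Hochberg adjusted), and it was past 0.15 with DESeq2 (adjusted p = 0.0717). In the GENCODE annotation used here, another release than the one the reads were counted on, 11.3% of the exon bases of Plg overlap Slc22a3 on the other strand, and reads are left out wherever such an overlap is also present in the counting annotation. The same holds for the other overlaps given. Serpinf2, the plasmin inhibitor alpha-2-antiplasmin, had means of 1339 ± 209.9 and 1101 ± 256 (SD, n = 5 each; log2 fold change -0.28). Hrg, the histidine-rich glycoprotein that binds plasminogen and heparin, had means of 1447 ± 282 and 1152 ± 204 (SD, n = 5 each; log2 fold change -0.33). Neither was past the threshold. The plasminogen activators Plat (0.112 to 1.22 normalized CPM) and Plau (0.206 to 1.05) and the urokinase receptor Plaur (0.232 to 0.703) were all under the filter.

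The procoagulant enzymes and cofactors showed no gene past 0.15. F2, which encodes prothrombin, had means of 2116 ± 252 and 2025 ± 218 normalized CPM (SD, n = 5 each), with the genotypes overlapping and a log2 fold change of -0.063. F10 (log2 fold change -0.15) and the cofactor F5 (-0.10) completed the common pathway, in which all 3 genes were fitted lower. F7, the partner of tissue factor, had 161, 149, 137, 164 and 199.6 normalized CPM in WT mice and 134, 162, 120.0, 110.3 and 125 in Thrb hep-/- mice. Of the Thrb hep-/- mice, 4 were below all WT mice and mouse 2 was above 3 of them. The log2 fold change of F7 was -0.31 with a standard error of 0.120 (adjusted p = 0.272 by the quasi-likelihood test of edgeR, Benjamini-Hochberg adjusted), and it was past 0.15 without Thrb hep-/- mouse 2 (log2 fold change -0.40, adjusted p = 0.105 by the same edgeR test). F3, which encodes tissue factor, was at 6.15 ± 1.48 and 6.09 ± 1.26 (SD, n = 5 each).

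In the intrinsic branch, F11 varied more among Thrb hep-/- mice than any other tested clotting factor. Its normalized CPM were 110.0, 108, 96.5, 137 and 111 in WT mice and 81.0, 137, 56.1, 43.1 and 109.6 in Thrb hep-/- mice, so the coefficient of variation was 13.2% in WT and 45.0% in Thrb hep-/- livers. Its log2 fold change of -0.40 had a standard error of 0.278 and moved between -0.63 (without Thrb hep-/- mouse 2) and -0.23 (without Thrb hep-/- mouse 4), at no setting past 0.15. F9 (log2 fold change -0.14) and F8 (0.089), the enzyme and cofactor mutated in haemophilia B and A, were at means of 211 ± 16.6 and 191 ± 36.2 and of 9.91 ± 0.566 and 10.5 ± 0.858 normalized CPM in WT and Thrb hep-/- mice (SD, n = 5 each). F8 is made mainly by endothelial cells in the liver.

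The contact system starts the intrinsic branch and releases bradykinin from kininogen. F12 (log2 fold change -0.017) and Klkb1, prekallikrein (0.095), did not pass the test, and 43.2% of the exon bases of Klkb1 are shared with the overlapping gene Gm45753 in GENCODE. Kng2 had 386, 307, 287, 306 and 356 normalized CPM in WT mice and 262, 298, 271, 218 and 225 in Thrb hep-/- mice. Thrb hep-/- mouse 2 was above WT mouse 3 and no other mice overlapped. The log2 fold change of Kng2 was -0.37 with a standard error of 0.113 (adjusted p = 0.158 by the quasi-likelihood test of edgeR, Benjamini-Hochberg adjusted). Kng2 was past 0.15 with DESeq2 (adjusted p = 0.0504), without the filter on low counts (0.113), without WT mouse 3 (0.145) and without Thrb hep-/- mouse 2 (0.0922). Its near-identical copy Kng1 had 3205, 2374, 2038, 2521 and 2699.9 normalized CPM in WT mice and 2138, 2449, 2034, 1735 and 1902 in Thrb hep-/- mice. The genotypes overlapped through WT mice 2 and 3 and Thrb hep-/- mice 1 and 2, and the log2 fold change was -0.32 with a standard error of 0.136 (adjusted p = 0.324 by the quasi-likelihood test of edgeR, Benjamini-Hochberg adjusted). Reads that map to both kininogen genes were not counted, so the split between Kng1 and Kng2 is uncertain. Hrg, Kng2 and Kng1 lie next to each other on chromosome 16.

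Platelet adhesion was represented by 2 genes, both fitted higher. Vwf, the von Willebrand factor of endothelial cells, had 5.79, 8.15, 7.01, 7.62 and 5.95 normalized CPM in WT mice and 10.6, 6.97, 8.95, 8.84 and 8.45 in Thrb hep-/- mice. All Thrb hep-/- mice but mouse 2 were above all WT mice. The log2 fold change of Vwf was 0.34 with a standard error of 0.133 (adjusted p = 0.275 by the quasi-likelihood test of edgeR, Benjamini-Hochberg adjusted), and without Thrb hep-/- mouse 2 it was 0.42 (adjusted p = 0.137 by the same edgeR test). Adamts13, the protease that cleaves von Willebrand factor and that stellate cells make in liver, had means of 2.47 ± 0.314 and 3.38 ± 1.02 (SD, n = 5 each; log2 fold change 0.45, adjusted p = 0.375 by the same edgeR test). Beside these values, the 7 endothelial markers summed to between 150 and 182 normalized CPM in WT mice and between 156 and 198 in Thrb hep-/- mice, with 4 of 7 fitted higher and none past 0.15. The 6 stellate cell markers summed to between 82.0 and 125 in WT mice and between 112 and 134 in Thrb hep-/- mice, with all 6 fitted higher and 1, Des (log2 fold change 0.67), past 0.15. Bulk counts do not show which liver cells the F2r RNA came from. The part of either cell type in the values of F2r, Thbd, Vwf and Adamts13 was not tested.

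The remaining inhibitors and accessory genes gave small differences. Antithrombin (Serpinc1) had means of 1934 ± 197 and 1972 ± 153 normalized CPM (SD, n = 5 each; log2 fold change 0.028), and 34.4% of its exon bases overlap Zbtb37 in GENCODE. Heparin cofactor II (Serpind1) had a log2 fold change of -0.042 and the tissue factor pathway inhibitor (Tfpi) of 0.18. Serpina5, the protein C inhibitor, was under the filter at 0.0347 to 0.566 normalized CPM. Of the fibrin cross-linking factor XIII, the B subunit F13b was tested (log2 fold change 0.079), and the A subunit F13a1, which macrophages and platelets make, was under the filter at 0.189 to 1.19. In the vitamin K cycle, Ggcx, the gamma-glutamyl carboxylase, had a log2 fold change of -0.21. Vkorc1, which recycles vitamin K, had low means of 3.09 ± 0.344 and 3.43 ± 1.44 normalized CPM (SD, n = 5 each). Its log2 fold change was 0.15, with Thrb hep-/- mouse 2 highest at 5.85. In GENCODE, 47.7% of the exon bases of Vkorc1 overlap Gm21974 on the same strand, which can lower its count. Lman1 (-0.034) and Mcfd2 (0.025), the cargo receptor that exports factors V and VIII from the endoplasmic reticulum, did not pass the test. The same held for Hgfac (-0.20), a protease that activates hepatocyte growth factor, for Habp2 (-0.13) and for Apoh (0.050), the phospholipid-binding beta-2-glycoprotein I. The 7 vitamin K-dependent proteins of the list (F2, F7, F9, F10, Proc, Pros1 and Proz) had a median log2 fold change of -0.15, with 6 fitted lower and 1, Pros1, past 0.15.

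Compared per kilobase of transcript, the WT levels of the 43 genes ranged from 0.055 normalized CPM per kb for F2rl2 to 1761 for Apoh. Kng1 (1405), F2 (1064), Plg (1031), Hrg (834) and Serpinf2 (611) followed Apoh. Of the 4 lower genes, Cpb2 (332), Serpina10 (129.7), Pros1 (25.3) and F2r (12.7) ranked 9, 16, 26 and 28 of the 43. The order between neighbours such as F2 and Plg does not hold beyond the spread of the mice. It also depends on the transcript whose length was taken. Serpinc1 had 1934 normalized CPM in WT mice, above Hrg (1447) and Serpinf2 (1339). Over a transcript of 4970 bases this gave 389 per kb. The overlap of 34.4% of the Serpinc1 exon bases with Zbtb37 can also lower this value.

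**Figure D3:**
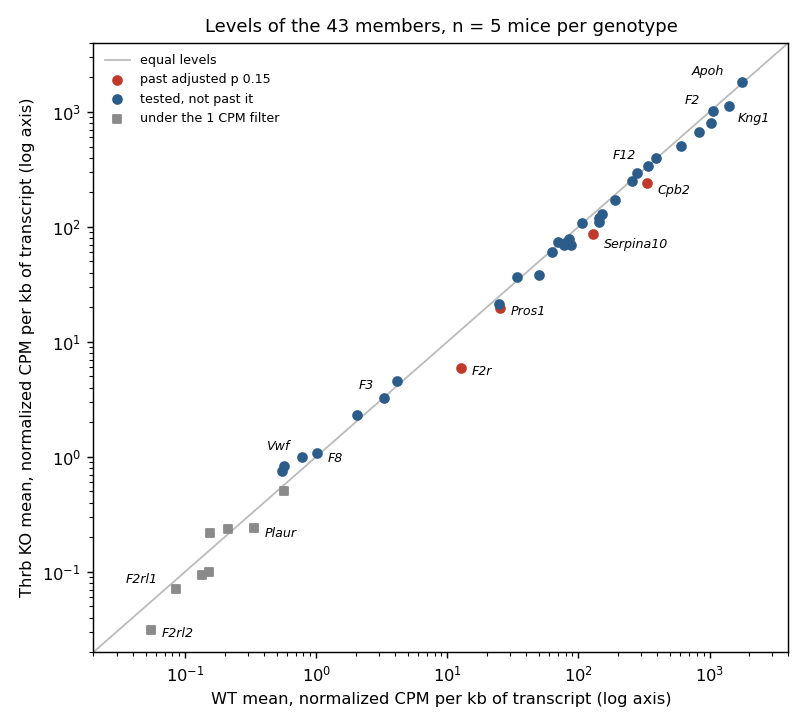
Mean normalized CPM per kb of transcript of the 43 genes in WT (x axis, log scale) and Thrb hep-/- livers (y axis, log scale), n = 5 mice each, with a line of equal levels. Red points are the 4 genes past an adjusted p of 0.15 and grey squares the 8 under the filter. F2r (12.7 in WT and 5.89 in Thrb hep-/- livers) lies farthest below the line among the tested genes.

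The levels of many of these genes moved together from mouse to mouse. Among WT mice, mouse 3 had the lowest value in 21 of the 35 tested genes (60%), whereas it was the lowest WT mouse in 21.5% of all genes tested, and mouse 1 had the highest value in 16 of 35 (45.7%, beside 19.3% of all genes). Among Thrb hep-/- mice, mouse 4 was the lowest in 22 of 35 (62.9%, beside 21.4% of all genes) and mouse 2 the highest in 21 of 35 (60%, beside 27.4% of all genes). The summed level of the 43 genes was 24209.9 normalized CPM in WT mouse 1 and 17891 in WT mouse 3, and 21462 in Thrb hep-/- mouse 2 and 16319.5 in Thrb hep-/- mouse 4. The range within each genotype was wider than the difference between the genotype means. F2r shared with this pattern its highest WT mouse, mouse 1, whereas its lowest WT mouse was mouse 5, and its highest and lowest Thrb hep-/- mice were mice 5 and 2.

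**Figure D4:**
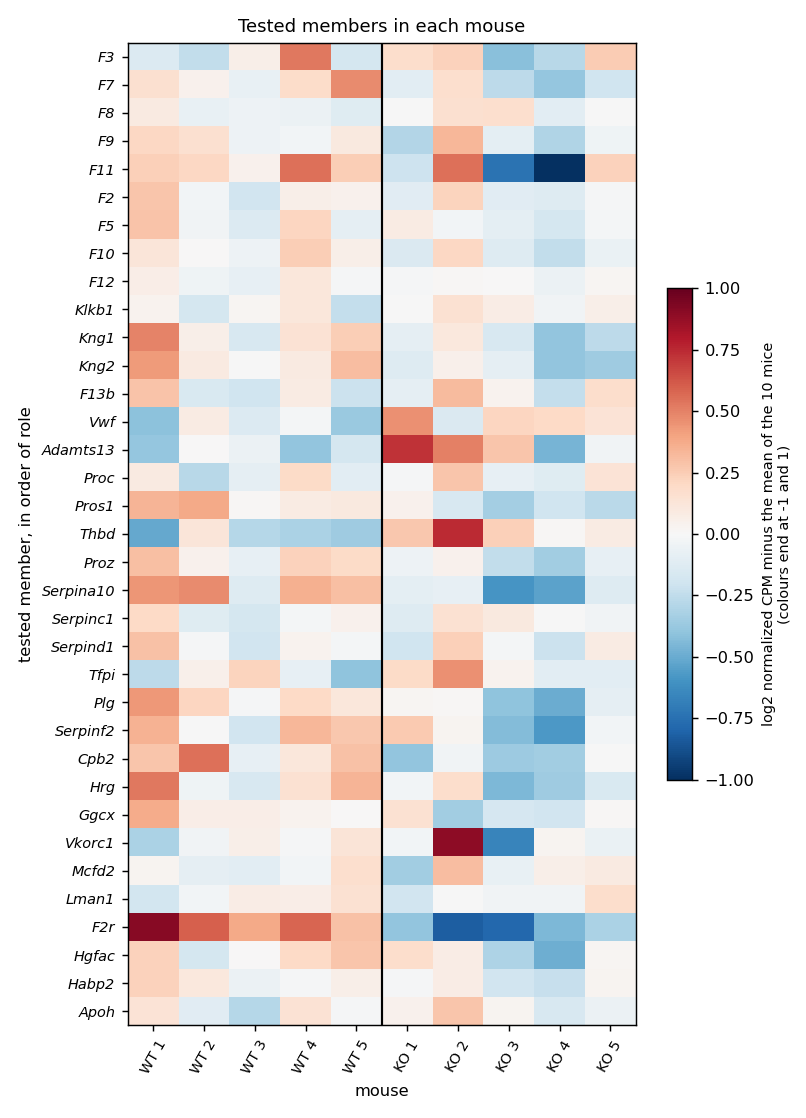
Log2 normalized CPM of each of the 35 tested genes in each mouse minus the mean of the 10 mice (colour scale, ending at -1 and 1), with genes in order of role and the 5 WT mice left of the 5 Thrb hep-/- mice. F2r is above its mean in all 5 WT mice and below it in all 5 Thrb hep-/- mice, while columns such as Thrb hep-/- mouse 4 are below the mean in most genes.

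Among 19 further genes of the pathway, 14 were tested, of which 10 were fitted lower. At an adjusted p below 0.15, 1 was lower and none was higher, beside 2.57% and 1.51% of all genes tested. The 1 gene was Gas6, which encodes a vitamin K-dependent relative of protein S that activates TAM receptors. Gas6 had 51.1, 76.5, 45.6, 45.1 and 63.7 normalized CPM in WT mice and 41.2, 23.1, 28.4, 33.4 and 27.5 in Thrb hep-/- mice. All Thrb hep-/- mice were below all WT mice, with a log2 fold change of -0.88 and a standard error of 0.181 (adjusted p = 0.0405 by the quasi-likelihood test of edgeR, Benjamini-Hochberg adjusted). The fibrinogen chains Fga, Fgb and Fgg, the substrate of thrombin, had log2 fold changes of -0.51, -0.51 and -0.50 and were not past the threshold (adjusted p = 0.327, 0.231 and 0.259 by the same edgeR test). Fgb had 10785, 9949, 6775, 9434 and 8537 normalized CPM in WT mice and 9221, 5841, 5402, 5038 and 6511 in Thrb hep-/- mice, where Thrb hep-/- mouse 1 lay among the WT mice and WT mouse 3 near the other genotype. Serping1, the C1 inhibitor that also restrains the contact system, did not overlap between genotypes (log2 fold change -0.37, adjusted p = 0.170 by the same edgeR test).

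Several of these plasma proteins, fibrinogen among them, belong to the acute-phase response, in which the liver raises a group of secreted proteins during inflammation. Of 18 other acute-phase genes, 14 passed an adjusted p of 0.15 as lower in Thrb hep-/- livers and none as higher. The shares among all genes tested were 2.57% lower and 1.51% higher. The acute-phase list was drawn up after the fall of some of its genes had been seen in these data. Their summed level was 35693, 60640, 20932, 25880 and 42797 normalized CPM in WT mice 1 to 5, whereas Thrb hep-/- mice 1 to 5 had 16328, 20616, 12557, 12159 and 14740. WT mouse 3, the lowest WT mouse of this sum, was also the lowest WT mouse of Serpina10, Pros1 and Cpb2. It was the lowest WT mouse in 21 of the 35 tested coagulation genes. WT mouse 2 was the highest of all 4. Among Thrb hep-/- mice, the sum was highest in mouse 2 and lowest in mouse 4. Serpina10 was highest in Thrb hep-/- mouse 2 and lowest in mouse 3, Pros1 in mice 1 and 3, and Cpb2 in mice 5 and 1. For F2r, the highest WT mouse was mouse 1. The part of the acute-phase state in the 4 lower genes was not tested.

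Of the macrophage, neutrophil, platelet, erythroid and cholangiocyte markers, only the neutrophil gene S100a8 passed an adjusted p of 0.15. The sums of each of these lists overlapped between the genotypes. The 7 macrophage markers were all fitted lower with none past 0.15 (sums between 86.0 and 343 normalized CPM in WT mice and between 96.4 and 207 in Thrb hep-/- mice). By mouse, the macrophage sums were 86.0, 274, 297, 204 and 343 in WT mice 1 to 5. Thrb hep-/- mice 1 to 5 had 125, 207, 96.4, 148 and 166. The neutrophil markers summed to between 1.52 and 12.5 normalized CPM in WT mice and between 0.232 and 2.33 in Thrb hep-/- mice, S100a8 was lower (log2 fold change -2.67, adjusted p = 0.134 by the quasi-likelihood test of edgeR, Benjamini-Hochberg adjusted), and Ly6g was at 0 in all 5 Thrb hep-/- mice and in 2 WT mice. The 5 platelet markers summed to between 4.05 and 8.88 in WT mice and between 4.61 and 5.0 in Thrb hep-/- mice, and the 5 erythroid markers to between 191 and 308 and between 149 and 232, with none of the tested genes past 0.15. Of the erythroid markers, 4 were fitted lower and 1, Alas2, higher (log2 fold change 0.037). Alas2 was also the largest part of the erythroid sum, with means of 118 and 121. The 4 cholangiocyte markers summed to between 5.80 and 9.73 and between 4.53 and 7.16. The part of these cells in the values above was not tested.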

How the data were processed

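Stranded mRNA libraries of liver RNA were sequenced by the authors, 1 per mouse, mapped on mm10 (GRCm38) with HISAT2 2.2.1 and counted per Ensembl gene with HTSeq 0.9.1, in union mode, without strand and with a minimum alignment quality of 10. The deposited values are these raw counts, with multi-mapping and ambiguous reads left out, so genes with copies or overlapping neighbours are undercounted. A deposited table of the authors' own edgeR 3.36.0 comparison (fold changes, mean expression, test statistics and p-values) was not used.

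Tests used edgeR 4.0.16 (R 4.3.3) on genes that reached 1 CPM in 5 or more libraries, with TMM factors, the quasi-likelihood test with robust settings and Benjamini-Hochberg adjustment over all 12234 genes tested. Library totals ranged from 26477195 to 28590704. Normalized CPM use TMM-scaled library sizes, and each standard error is the size of the log2 fold change over the square root of F. CPM per kb used the longest APPRIS principal transcript of GENCODE M21, the source of coordinates and exon overlaps and another release than the authors counted on. Promoters are RefSeq's on GRCm38.p6. The script was tested on simulated data. No 2 libraries were duplicates. Groups came from the labels, which number the samples of a genotype from 1 to 5; these are taken as separate mice, and p-values measure only the spread between these samples. Alternatives were DESeq2 1.42.0, limma-voom (limma 3.58.1), RLE and upper-quartile normalization, no filter, no robust settings, a replicate block and each mouse left out.

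The genes and lists were chosen with earlier results of these data known. Of the 43 genes, full values are given for those past an adjusted p of 0.15, an unadjusted p below 0.05 or with genotypes apart, and the others by level or fold change; genes of the other lists are given by counts and sums, with values for a few.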

Additional observations from a re-analysis of the deposited data

Results flagged for a closer look

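In 96 groups of 5 mice (43 genes, Thrb, the 3 fibrinogen chains and the library totals, in both genotypes), 4 held a mouse far from the other 4 by Dixon's test with a limit of 0.71, where chance gives about 4.8. Ggcx was at 87.3 normalized CPM in WT mouse 1, beside 67.7 to 70.7 in the other WT mice. F2rl1 was at 0.265 normalized CPM in Thrb hep-/- mouse 4, beside 0.172 to 0.187 in the others, which are values of a few counts. Fga was at 11612 normalized CPM in Thrb hep-/- mouse 1, beside 5498 to 6983 in the others. The library of Thrb hep-/- mouse 2 held 27779196 counts, beside 28441288 to 28590704 in the others of its genotype.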

How the results depend on the processing

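Over 17 alternatives, 556 of 595 pairs of a tested gene and an alternative kept direction and side of the threshold; 13 were no longer past it, 9 newly past it and 17 reversed, in 9 genes. Thrb (adjusted p 0.00098 to 0.133 by the edgeR, DESeq2 or limma fit) and F2r (2.8e-11 to 0.0078) kept their call in all 17. Serpina10 (0.0042 to 0.174) lost it in 2, Pros1 (0.018 to 0.217) in 5 and Cpb2 (0.016 to 0.255) in 6, all with a mouse left out.

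The number of genes past an adjusted p of 0.15, 4 of 35, was 8 with DESeq2 and 1 to 7 with a mouse left out (1 without WT mouse 2 or Thrb hep-/- mouse 3, 2 without WT mouse 1 or Thrb hep-/- mouse 4, 7 without Thrb hep-/- mouse 2). At 0.05 it was 1, and 4 with DESeq2, 3 without the filter, 2 with the replicate block and 1 to 2 with a mouse left out. The median log2 fold change of the 35 stayed between -0.15 and -0.060. Among all genes, 499 (0.15) and 165 (0.05) became 885 and 502 with DESeq2 (4 without an adjusted p), 641 and 294 without the filter, and 222 to 665 and 75 to 185 with a mouse left out. The cause was not tested.

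The 9 genes that changed sign, each with a mouse left out, had log2 fold changes from -0.13 to 0.0060 (F2), -0.11 to 0.035 (Serpind1), -0.011 to 0.087 (Serpinc1), -0.050 to 0.10 (Mcfd2), -0.012 to 0.095 (Apoh), -0.080 to 0.14 (F3), -0.041 to 0.011 (F12), -0.085 to 0.0062 (Lman1) and -0.13 to 0.29 (Vkorc1), none past 0.15.

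WT and Thrb hep-/- mice share replicate numbers in the labels, but same-numbered mice did not deviate together (correlations of -0.20 to 0.0091, 0 of 5 best with their own number), so the numbers are not taken as pairs. With the replicate block, 4 of the 35 genes and 348 of all genes were past 0.15.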
